A study of Homo sapiens with 6 samples.

Results

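The cadherin superfamily was followed across 3 human ovarian cancer cell lines. Members were taken by gene symbol, as every named gene whose symbol begins with CDH and a digit, PCDH, FAT and a digit, DSG, DSC and a digit, or CELSR, together with the Dachsous genes. Antisense transcripts (3) and pseudogenes (3) were left out. The rule found 43 genes on 47 probe sets, of 14884 genes named on the array. They were 16 clustered beta protocadherins, 13 other protocadherins, 7 desmosomal cadherins, 5 genes of the FAT and Dachsous group (FAT1, FAT2, FAT3, FAT4 and DCHS1) and 2 further cadherins (CDH23 and CDH26). Classical cadherins such as CDH1 and CDH2, the CELSR genes and the alpha and gamma protocadherin clusters were not analysed here.

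The lines were ES-2, OVCAR-3 and SKOV-3, all labelled as ovarian cancer. Each line gave 1 array after transfection with miR-blank, the control, and 1 array after transfection with miR-135a-3p, a microRNA, so both groups hold 3 arrays and the lines are the replicates (n = 3). No other allele or agent is named, and the form of the transfected material, its dose and when cells were collected are not given in the sources used here. Signals are on a log2 scale after normalization, and differences are miR-135a-3p minus miR-blank unless stated otherwise. Signals of different probe sets are not on a common scale, so levels are compared between arrays and not between genes. The medians of the 6 arrays lay between 4.16 and 4.23, and a probe set below the median of an array is called dim there, since no detection calls were used. By this mark 10 of the 43 members were dim on all 6 arrays and 9 lay above the median on all 6. In bulk RNA, fewer cells with a transcript and less transcript per cell cannot be told apart.

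Cadherins are transmembrane proteins whose extracellular repeats bind calcium and join neighbouring cells. Desmogleins and desmocollins are the adhesive cadherins of desmosomes, which anchor keratin filaments through plaque proteins. FAT4 and DCHS1 are giant cadherins that bind each other across cell borders and act in planar cell polarity and growth control. The clustered protocadherins stand in tandem on chromosome 5. They are best known from neurons, where each cell uses its own combination of promoters and the proteins bind like proteins on other cells. Most promoters of these clusters carry a conserved element near the start site, which CTCF and cohesin bring into contact with distant enhancers.

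The transfected microRNA is shown with its seed, bases 2 to 8, in capitals. RefSeq places its 22 bases on chr3:52294232-52294253 of GRCh38.p14, on the minus strand.
hsa-miR-135a-3p: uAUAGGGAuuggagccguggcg

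The promoters of beta protocadherin genes are shown because the genes of this cluster past 2-fold were not the same in ES-2 and SKOV-3. RefSeq promoter entries, 250 bases before and 50 after the start site, were found for 34 of the 43 members and for 14 of the 16 beta genes. The longest run of letters shared by all but 1 of these 14 was GGTGGCGCT, found by comparing the promoters themselves. It stood in 13 of 14 beta promoters, in 0 of 27 promoter entries of the other members and in 176 of 35116 promoters overall (0.501%), with both strands searched. Its first base lay between position −84 (PCDHB4) and position −2 (PCDHB8) relative to the start site. In the PCDHB1 promoter the best match held 8 of the 9 letters. A match is a description of the letters and not a measured binding site. Windows of 60 bases follow, on the plus strand of chromosome 5 in GRCh38.p14, with the 9 letters (or the best match in PCDHB1) in capitals. They are PCDHB1 at chr5:141051328-141051387, PCDHB4 at chr5:141121714-141121773, PCDHB5 at chr5:141135170-141135229, PCDHB8 at chr5:141177768-141177827, PCDHB13 at chr5:141213856-141213915, PCDHB14 at chr5:141223254-141223313 and PCDHB15 at chr5:141245305-141245364.
PCDHB1: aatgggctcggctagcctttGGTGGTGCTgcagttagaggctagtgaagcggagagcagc
PCDHB4: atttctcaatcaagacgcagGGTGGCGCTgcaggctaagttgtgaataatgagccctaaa
PCDHB5: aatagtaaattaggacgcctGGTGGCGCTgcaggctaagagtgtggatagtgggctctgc
PCDHB8: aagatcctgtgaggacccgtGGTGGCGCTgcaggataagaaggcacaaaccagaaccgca
PCDHB13: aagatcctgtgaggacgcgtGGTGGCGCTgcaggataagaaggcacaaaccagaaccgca
PCDHB14: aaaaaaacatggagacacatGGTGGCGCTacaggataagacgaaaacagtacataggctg
PCDHB15: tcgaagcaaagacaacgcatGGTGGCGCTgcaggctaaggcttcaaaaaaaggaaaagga

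Beside the 9 letters some bases were shared, such as gcagg directly after them in PCDHB4, PCDHB5, PCDHB8, PCDHB13 and PCDHB15. Over a longer stretch most pairs of beta promoters differed at most bases. Over 140 flanking bases, aligned on the motif without gaps, the median identity of the 78 pairs of promoters was 34.6%. PCDHB8 and PCDHB13 stood apart at 95.0%, followed by PCDHB9 and PCDHB10 at 48.6%. The beta promoters held a median of 7.5 CG pairs, against 14.0 over all promoters of the same length.

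The transfection was visible in MIR135A1, a hairpin gene of miR-135a, which rose from 1.75 to 12.57 (ES-2), 2.26 to 12.20 (OVCAR-3) and 2.07 to 11.58 (SKOV-3) (limma adjusted p = 4.98e-05). Of the other cell types' markers, PECAM1, VWF and KDR, made by endothelial cells and 3 of 4 listed, read 3.87 to 4.91 on all arrays, near the medians, and none of the 4 leukocyte markers was named. KRT18, a keratin of simple epithelia, read 9.36 to 10.47 in all lines, while EPCAM, an epithelial adhesion protein, read 3.78 to 4.32. The other listed keratins, KRT8 and KRT19, read 5.29 to 6.75 and 4.70 to 5.20, and the listed lineage marker WT1 read 5.59 to 7.15. PAX8, a lineage factor of the Mullerian tract, read 8.80 and 8.12 in SKOV-3 and 4.12 to 4.80 in the other lines. VIM, the mesenchymal filament protein vimentin, read 9.60 to 10.85 in ES-2 and SKOV-3 and 5.08 and 5.54 in OVCAR-3.

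No cadherin superfamily gene passed the test for the transfection. With the cell line as a block, limma called 0 of 43 members at an adjusted p under 0.05, against 0.00672% of all named genes. That share is 1 gene of 14884, MIR135A1 itself. The adjusted p of every member was 0.9999 or above. At an unadjusted p under 0.05 there were 9 members, 6 of them beta protocadherins, against 3.35% of all named genes. These were DSG3, FAT2, FAT4, PCDHB10, PCDHB12, PCDHB13, PCDHB14, PCDHB15 and PCDHB16. The signal was higher after miR-135a-3p in all 3 lines in 18 members, 9 of them beta protocadherins, against 11.2% of named genes; with equal array medians or quantile normalization these counts were 16 and 8. It was lower in all 3 lines in 4 members, namely DCHS1, DSG2, DSG3 and FAT2, against 11.9%. Both counts take differences of any size, such as 0.02 for CDH23 in OVCAR-3, and include members dim on all 6 arrays. The 43 members counted include the Y-linked PCDH11Y, whose values are not given. Among the 33 members above the array median on at least 1 array, 18 had 1 sign in all 3 lines, in place of 22 of 43. The share over named genes passing that filter is not given here. In simulated data the same procedure called 51 of 100 genes changed by 1 and 99 of 100 changed by 2 on the log2 scale. Differences as uneven between lines as those of DSG2 (SD 1.35) or PCDHB4 (SD 1.34) were not tested in this way. Data with fewer changed genes were not tested either.

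The beta protocadherins had mostly higher signals after miR-135a-3p. The difference was above 0 in 12 of 16 genes of ES-2 (11 with equal array medians or quantile normalization, where PCDHB7 turned), in 12 of OVCAR-3 and in all 16 of SKOV-3, while 51.0%, 46.3% and 50.7% of all named genes lay above 0 in these lines. The median over the 16 genes was 0.47 for ES-2, 0.25 for OVCAR-3 and 0.44 for SKOV-3, against 0.01, −0.02 and 0.01 over all named genes. The other 27 members had medians of 0.07, 0.13 and 0.02. All differences between single arrays within a line have no replicate and no test, and the SD of the difference over all named genes was 0.317, 0.320 and 0.451. Beta protocadherins resemble each other in sequence, so their probe sets may read transcripts of a neighbour, and the 16 genes are not independent measurements; cross-reading of probes was not tested.

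**Figure D1:**
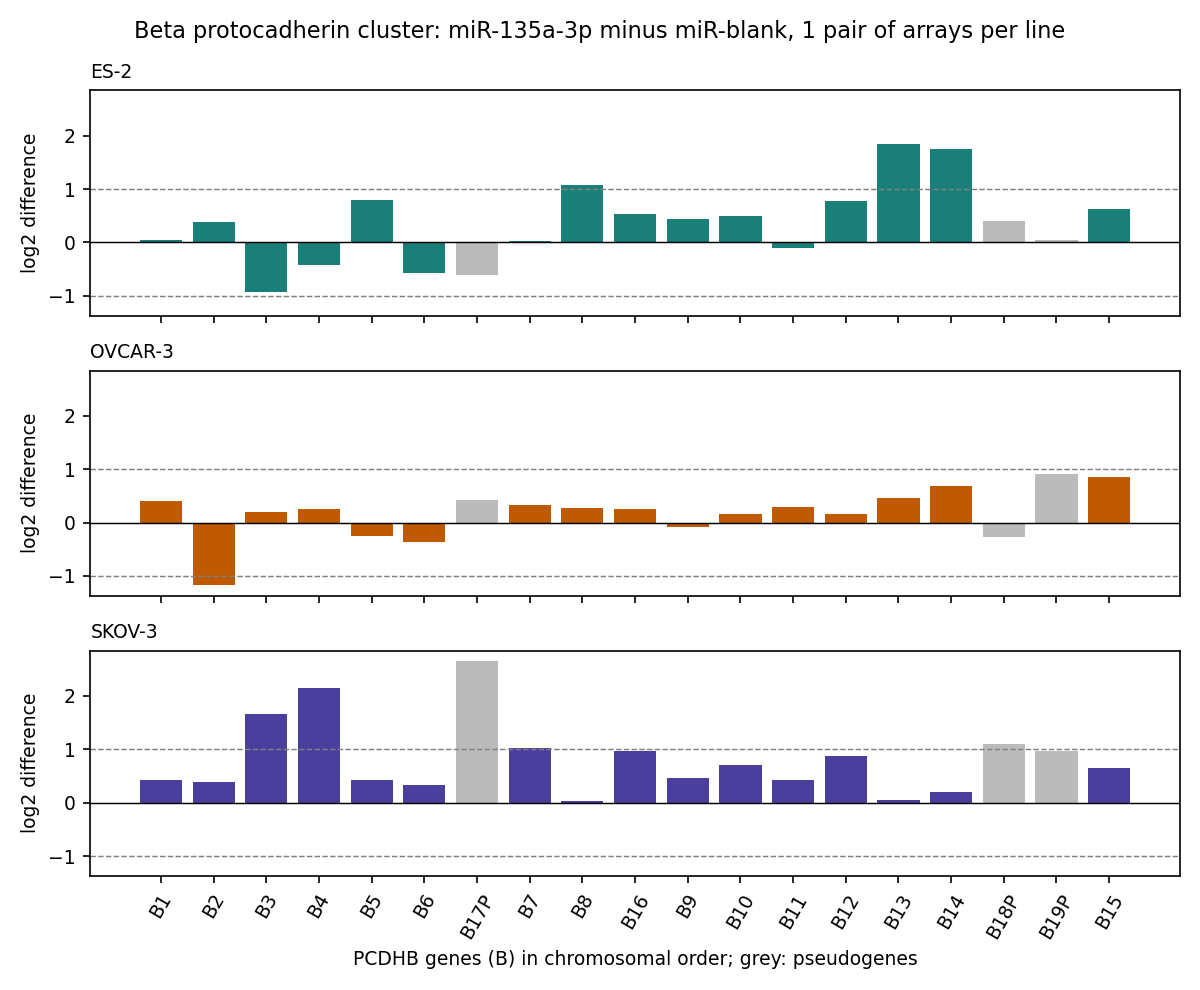
Bars give the log2 difference (miR-135a-3p minus miR-blank) of each beta protocadherin in each line, in gene order along chromosome 5, with 3 pseudogenes in grey and dashed lines at 2-fold; each bar is 1 pair of arrays, without error bars. PCDHB8, PCDHB13 and PCDHB14 pass 2-fold in ES-2, and PCDHB3, PCDHB4 and PCDHB7 in SKOV-3.

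The genes with the largest differences were not the same in ES-2 and SKOV-3. At least 2-fold higher within ES-2 were 3 members, all of them beta protocadherins, against 0.309% of named genes. With miR-blank PCDHB13 read 4.05, dim, in ES-2 and with miR-135a-3p 5.90, a difference of 1.85 or 3.60-fold. The same gene read 2.50 and 2.96, both dim, in OVCAR-3 and 7.61 and 7.66 in SKOV-3. PCDHB14 read 3.99, dim, and 5.74 in ES-2, a difference of 1.75 or 3.37-fold.

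In the other lines PCDHB14 read 3.88, dim, and 4.56 (OVCAR-3) and 7.51 and 7.71 (SKOV-3). PCDHB8 read 2.18 and 3.27 in ES-2, but both signals were dim. It read 1.92 and 2.20 in OVCAR-3, also dim, and 7.54 and 7.57 in SKOV-3. Thus the 3 genes with the larger ES-2 differences had close signals on both SKOV-3 arrays. PCDHB13 and PCDHB8, whose promoters matched at 95.0% of the flanking bases, were among them, while PCDHB14 shared no such match with either. Neither a part of the promoters in these differences nor cross-reading between such similar genes was tested. Below 2-fold in ES-2, PCDHB5 followed with 6.24 and 7.04, a difference of 0.80. PCDHB12 came next, with 4.50 and 5.27 in ES-2, 4.0 and 4.16 in OVCAR-3 and 5.93 and 6.79 in SKOV-3.

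Within SKOV-3, 5 members were at least 2-fold higher, 3 of them beta protocadherins, against 1.79% of named genes. In SKOV-3 PCDHB4 read 4.89 with miR-blank and 7.05 with miR-135a-3p, a difference of 2.16, and stayed between 2.21 and 2.90, dim, on the other 4 arrays. PCDHB3 read 5.76 and 7.43 in SKOV-3, a difference of 1.67. In ES-2 PCDHB3 went the other way, from 4.13 to 3.21, both dim, and in OVCAR-3 it read 6.72 and 6.91.

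PCDHB7 read 6.73 and 7.76 in SKOV-3, a difference of 1.03, with 4.38 and 4.40 in ES-2 and 3.99 and 4.32 in OVCAR-3. PCDHB16 read 6.82 and 7.78 in SKOV-3, 4.17 and 4.71 in ES-2 and 4.27 and 4.52 in OVCAR-3. PCDHB7, past 2-fold in SKOV-3, and PCDHB8, past 2-fold in ES-2, are neighbours in the cluster. The pseudogene PCDHB17P, which lies between PCDHB6 and PCDHB7 and is no member, read 3.84, dim, and 6.50 in SKOV-3, a difference of 2.65. Not every neighbour differed so much, since PCDHB5 read 9.71 and 10.13 and PCDHB6 read 8.31 and 8.64 in SKOV-3.

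Across the 16 beta genes, the differences in ES-2 and SKOV-3 had a Pearson correlation of −0.628 and a Spearman correlation of −0.482. The same values were 0.271 and 0.306 for ES-2 with OVCAR-3, and 0.0890 and −0.103 for OVCAR-3 with SKOV-3. These are descriptions over genes that share arrays, a locus and probe sequence. Over all 14884 named genes the Pearson correlations of the differences were 0.0234, 0.123 and −0.0531 in the same order.

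In OVCAR-3 no beta gene was 2-fold higher, and 0.457% of named genes were. PCDHB2 was the only member at least 2-fold lower there, against 0.410% of named genes. There it read 5.55 with miR-blank and 4.37 with the microRNA, with 4.57 and 4.95 in ES-2 and 7.49 and 7.87 in SKOV-3. In OVCAR-3 PCDHB15 had the largest difference of the members in the upward direction.

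PCDHB15, the last gene of the beta cluster, had close differences in the 3 lines. It read 3.84 and 4.47 in ES-2, 4.03 and 4.89 in OVCAR-3 and 6.69 and 7.33 in SKOV-3, and the array after miR-135a-3p was the higher of each pair. The mean difference was 0.71 ± 0.13 (SD, n = 3), with an unadjusted limma p of 0.00156 and an adjusted p of 0.9999. The miR-blank signals of ES-2 and OVCAR-3 were dim, and the groups overlap when lines are pooled because SKOV-3 was higher on both arrays.

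**Figure D2:**
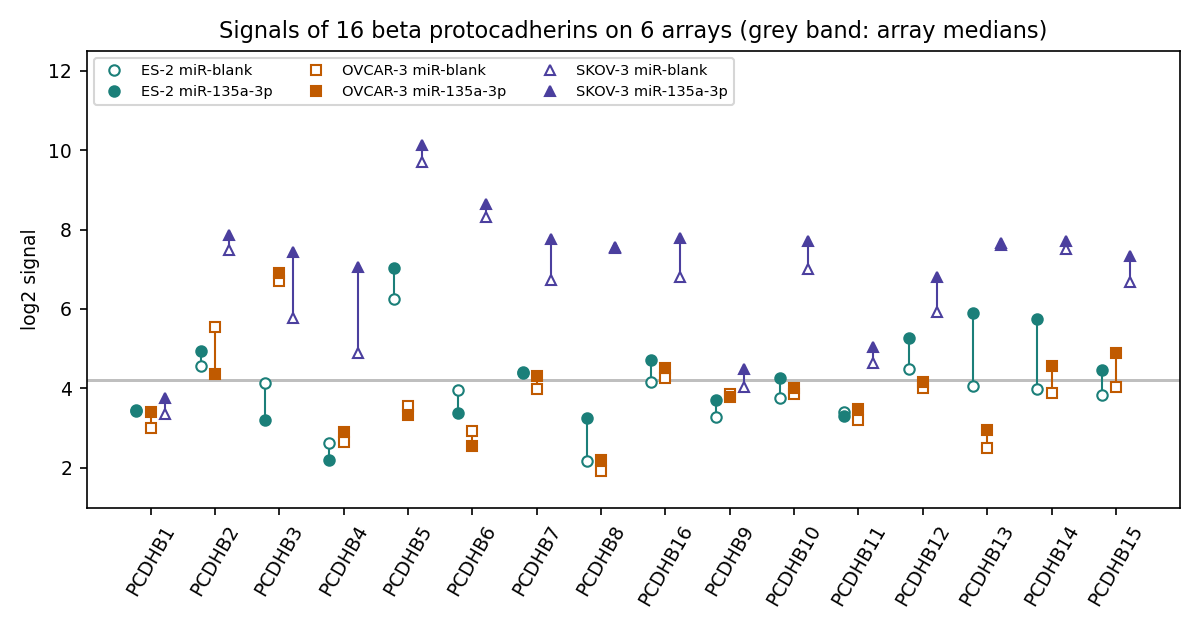
Log2 signals of the 16 beta protocadherins in gene order, 1 point per array, open after miR-blank and filled after miR-135a-3p, with a line joining the arrays of a cell line and a grey band at the array medians. The SKOV-3 arrays lie above those of the other lines in 14 of 16 genes, and PCDHB1 is below the medians on all 6 arrays.

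The beta protocadherins set SKOV-3 apart from the other lines. On both SKOV-3 arrays the signal lay above all 4 arrays of the other lines in 14 of 16 beta genes, and 14.9% of named genes had this order. With the transfection as a block, limma called 14 of 16 beta genes higher in SKOV-3 than in ES-2 (adjusted p under 0.05 and at least 2-fold), and 19 of all 43 members, against 5.33% of named genes. In SKOV-3 over OVCAR-3 it called 13 beta genes and 19 members, against 6.44%. These calls rest on limma's moderation of the variances: without it, 0 members were called in any pair of lines. The median difference over the beta genes was 2.86 for SKOV-3 minus ES-2 and 3.0 for SKOV-3 minus OVCAR-3. It was 0.15 for ES-2 minus OVCAR-3. Each line has 2 arrays, which also differ in transfection, and no label states that these are separate cultures, so the p-values here cover only the spread between such arrays.

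The order of the lines differed among the beta genes. PCDHB5 read 6.24 and 7.04 in ES-2, 3.57 and 3.33 in OVCAR-3 and 9.71 and 10.13 in SKOV-3, and all pairs of lines differed (SKOV-3 minus OVCAR-3 6.47, limma adjusted p = 4.96e-05). PCDHB6 read 8.31 and 8.64 in SKOV-3 against 2.56 to 3.95 on the other 4 arrays, which were dim, a difference of 5.73 from OVCAR-3 (adjusted p = 5.62e-05 by limma) and 4.81 from ES-2. PCDHB8 differed by 5.50 between SKOV-3 and OVCAR-3 (limma adjusted p = 7.72e-05). PCDHB13 was higher in SKOV-3 than in OVCAR-3 by 4.90, and ES-2 also exceeded OVCAR-3, by 2.25 (limma adjusted p = 0.0101). Without the OVCAR-3 array after miR-135a-3p, this last call and that of PCDHB4 between OVCAR-3 and SKOV-3 were lost.

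PCDHB3 and PCDHB1 were the genes in which SKOV-3 did not lie above the other lines on both arrays. For PCDHB3, OVCAR-3 exceeded ES-2 by 3.14 (limma adjusted p = 0.00804), while OVCAR-3 and SKOV-3 differed by 0.21 (adjusted p = 0.853), with signals of 6.72 and 6.91 against 5.76 and 7.43. The call of SKOV-3 over ES-2 was lost when p-values were adjusted over all probe sets of the array. PCDHB1 was dim on every array, between 3.02 and 3.76. PCDHB10 read 6.99 and 7.71 in SKOV-3 and 3.75 to 4.25 on the other 4 arrays, and PCDHB11 read 4.63 and 5.05 against 3.20 to 3.48. PCDHB9 read 3.27 to 3.85 outside SKOV-3 and 4.03 and 4.49 in it, and was called in no pair of lines.

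Of the desmosomal cadherins, DSC1, DSG1, DSG3 and DSG4 were dim on all 6 arrays, and DSC2, DSC3 and DSG2 set the lines apart. DSG2, the most widely made desmoglein, read 10.25 and 10.02 in SKOV-3, 5.79 and 3.16 in ES-2 and 3.24 and 2.89 in OVCAR-3. SKOV-3 exceeded OVCAR-3 by 7.07 (limma adjusted p = 0.000422) and ES-2 by 5.66 (adjusted p = 0.0012 by limma). ES-2 exceeded OVCAR-3 by 1.41, which was not called (adjusted p = 0.14 by limma).

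Within ES-2 the DSG2 signal after miR-135a-3p was below that after miR-blank by 2.63, or 6.18-fold, and passed from above the array median to below it. In OVCAR-3 and SKOV-3 the differences were −0.35 and −0.23. The mean was −1.07 ± 1.35 (SD, n = 3), and −0.29 without ES-2. The unadjusted limma p was 0.0503, with an adjusted p of 0.9999. At least 2-fold lower within ES-2 were 2 members, DSG2 and PCDH15, against 0.591% of named genes.

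DSG3, a desmoglein of stratified epithelia, differed by −0.29 (ES-2), −0.70 (OVCAR-3) and −0.59 (SKOV-3), a mean of −0.53 ± 0.21 (SD, n = 3). The unadjusted limma p was 0.00998, with an adjusted p of 0.9999. All its signals, from 2.69 to 3.93, were dim. DSC2, the widely made desmocollin, read 5.30 and 5.74 in ES-2, 3.98 and 4.17 in OVCAR-3 and 8.43 and 8.78 in SKOV-3. All pairs of lines differed, with SKOV-3 above OVCAR-3 by 4.53 (limma adjusted p = 4.31e-05) and ES-2 above OVCAR-3 by 1.44 (adjusted p = 0.00174 by limma). DSC3 read 7.43 and 8.14 in SKOV-3 and 2.83 to 3.49, dim, on the other 4 arrays. The difference of DSC3 between the transfections was 0.71 in SKOV-3, −0.32 in ES-2 and −0.54 in OVCAR-3.

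The proteins of the desmosomal plaque, which tie these cadherins to keratin, were named for 8 of 9 listed genes, and 0 of 8 were called for the transfection. DSP, the plaque's keratin linker desmoplakin, read 9.87 and 9.40 in SKOV-3 and 3.45 to 4.19 elsewhere, with SKOV-3 above ES-2 by 5.78 (limma adjusted p = 0.000115). PKP2, a plakophilin of the plaque, read 5.36 and 5.18 in SKOV-3 and 3.92 to 4.09 elsewhere. JUP, plakoglobin, had another order, highest in OVCAR-3 at 8.21 and 8.08, with 6.47 and 6.07 in SKOV-3, and 5.48 and 5.60 in ES-2. Of the 9 listed catenins and their actin linkers, 2 were named, JUP and VCL, and neither was called for the transfection. DSP and PKP2 were the 2 of 8 plaque genes called with SKOV-3 above ES-2, against 5.33% of named genes, and 2 of 8 were called with SKOV-3 above OVCAR-3, against 6.44%.

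**Figure D3:**
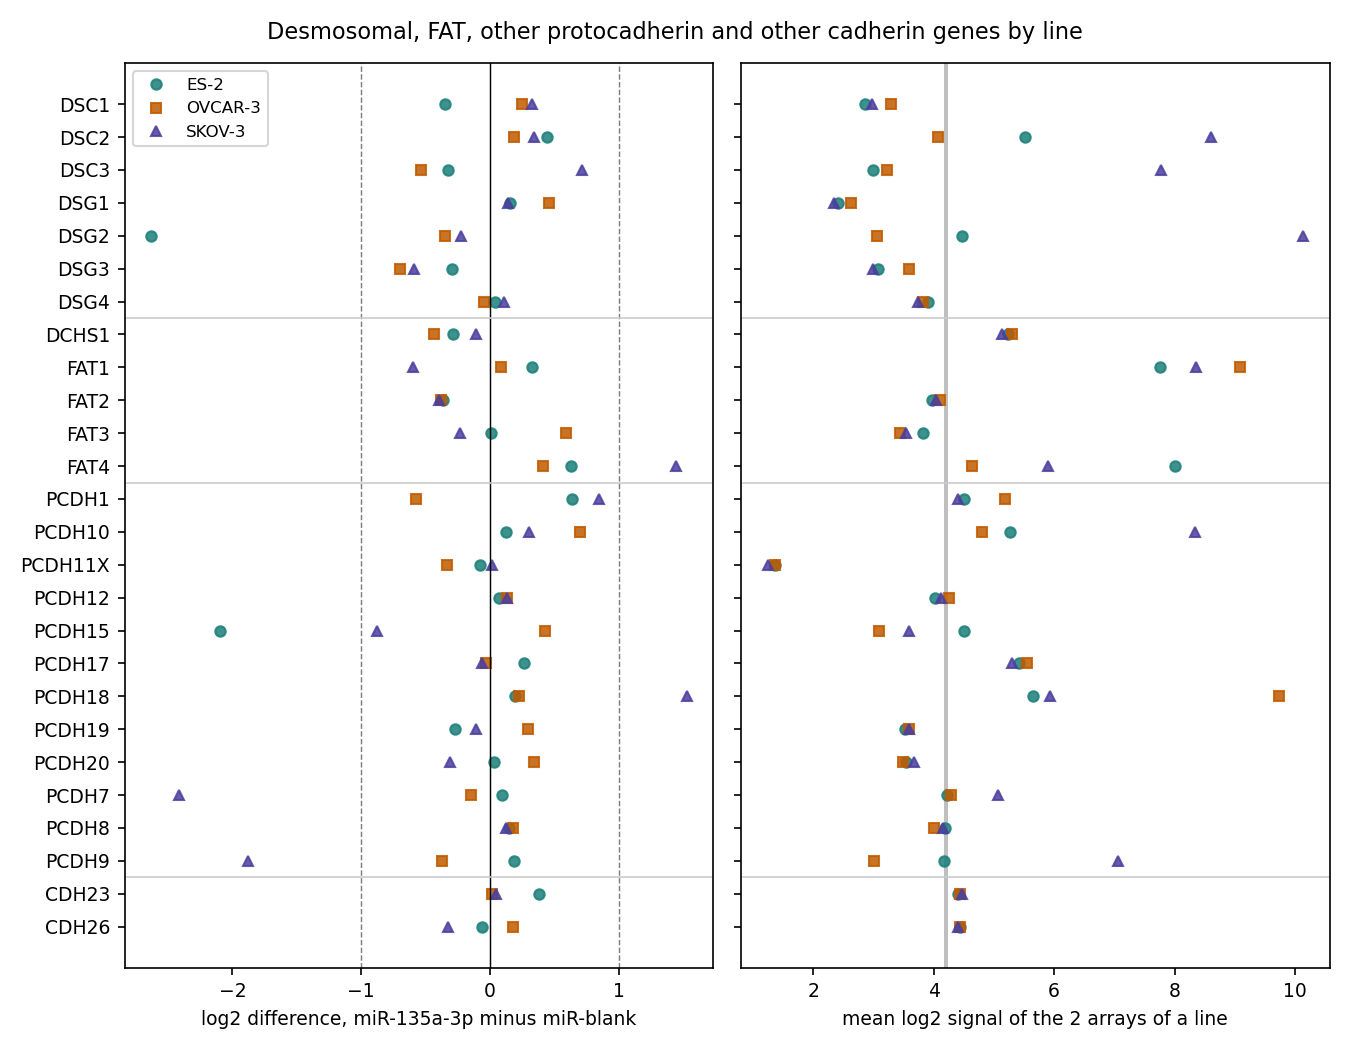
Members outside the beta cluster, without the Y-linked gene: the left panel gives the log2 difference (miR-135a-3p minus miR-blank, 1 pair of arrays per line, dashed lines at 2-fold) and the right panel the mean log2 signal of the 2 arrays of a line, with a grey band at the array medians and no error bars. DSG2, DSC2 and DSC3 are highest in SKOV-3, FAT4 in ES-2 and PCDH18 in OVCAR-3, and DSG2 in ES-2 and PCDH7 in SKOV-3 have the lowest differences.

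FAT4, the giant cadherin that serves as receptor for Dachsous ligands, had a higher signal after miR-135a-3p in every line. It read 7.70 and 8.33 in ES-2, 4.43 and 4.84 in OVCAR-3 and 5.18 and 6.62 in SKOV-3. The mean difference was 0.83 ± 0.54 (SD, n = 3), with a limma p of 0.00704 before adjustment and 0.9999 after it. Without SKOV-3, whose difference was 1.44, the mean was 0.52. All signals lay above the array medians.

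The line comparison placed FAT4 highest in ES-2, above OVCAR-3 by 3.38 (limma adjusted p = 0.0003) and above SKOV-3 by 2.11 (adjusted p = 0.00336 by limma). No other member was called with ES-2 above SKOV-3, a call made for 4.17% of named genes. SKOV-3 exceeded OVCAR-3 by 1.27 (adjusted p = 0.0215 by limma), a call lost without the miR-135a-3p array of OVCAR-3 or of SKOV-3 and when adjusted over all probe sets. With ES-2 above OVCAR-3, 4 members were called, DSC2, FAT4, PCDHB5 and PCDHB13, against 6.66% of named genes.

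FAT1, another large cadherin, read 7.59 and 7.91 in ES-2, 9.05 and 9.14 in OVCAR-3 and 8.66 and 8.06 in SKOV-3, with a difference of −0.60 in SKOV-3. OVCAR-3 exceeded ES-2 by 1.34 (limma adjusted p = 0.0114), a call lost without the miR-blank array of ES-2 or the miR-135a-3p array of OVCAR-3. Members called higher in OVCAR-3 than in ES-2 were 3, FAT1, PCDH18 and PCDHB3, against 5.19% of named genes. FAT2 had almost equal differences of −0.36, −0.38 and −0.39, a mean of −0.38 ± 0.02 (SD, n = 3), with an unadjusted limma p of 0.0258 and an adjusted p of 0.9999. Its signals lay between 3.79 and 4.30, around the array medians, and only 2 of the 6 were above.

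DCHS1, a Dachsous ligand of FAT4, had 3 probe sets that disagreed. The one with the highest mean read 5.38 and 5.10 in ES-2, 5.52 and 5.09 in OVCAR-3 and 5.18 and 5.07 in SKOV-3, lower after miR-135a-3p in each line. Another had differences of 0.26, −0.35 and 0.41, and the last had −0.69, 0.36 and −0.10. Averaged over the sets, the difference in SKOV-3 turned from −0.11 to 0.07. FAT3 was dim throughout. Of 11 listed genes of planar polarity and Fat signalling, 6 were named and 0 called for the transfection. FJX1, the homologue of the fly Four-jointed protein that modulates Fat and Dachsous binding, read 10.42 and 10.31 in ES-2 and 5.99 to 6.49 in the other lines. PRICKLE1, a core polarity protein, read 6.05 and 7.21 in ES-2, 4.97 and 5.08 in OVCAR-3 and 5.07 and 4.98 in SKOV-3.

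Among the 13 protocadherins outside the beta cluster, 4 were dim on all 6 arrays and 3 were above the median on all 6. One is Y-linked, and its values are not given. PCDH18 read 9.62 and 9.85 in OVCAR-3, 5.56 and 5.76 in ES-2 and 5.17 and 6.70 in SKOV-3, so that SKOV-3 alone had a large difference, 1.53. It alone among the members was called with OVCAR-3 above SKOV-3, by 3.80 (limma adjusted p = 0.000715), against 3.81% of named genes. PCDH10 was higher in SKOV-3, at 8.18 and 8.49, than in ES-2, at 5.20 and 5.33 (limma adjusted p = 0.000247), and OVCAR-3, at 4.45 and 5.15 (adjusted p = 0.000125 by limma).

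At least 2-fold lower within SKOV-3 were 2 members, both of them protocadherins outside the cluster, against 1.53% of named genes. In SKOV-3 PCDH7 read 6.27 with miR-blank and 3.85 with the microRNA, a difference of −2.42, and 4.17 to 4.36 on the other 4 arrays. PCDH9 read 8.0 and 6.12 in SKOV-3, a difference of −1.88, with 4.08 and 4.27 in ES-2 and 3.19 and 2.82 in OVCAR-3. A second PCDH9 probe set, dim on all arrays, differed by −0.48 in SKOV-3, and the mean over both sets differed by −1.18. Both PCDH9 signals in SKOV-3 were still above those of the other lines, whereas PCDH7 after miR-135a-3p was not. Of the members past 2-fold in SKOV-3, FAT4, PCDH18 and 3 beta protocadherins were thus higher after miR-135a-3p, and these 2 genes lower.

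PCDH15, a tip-link protein of hair cells, read 5.55 with miR-blank and 3.46 with the microRNA in ES-2, a difference of −2.09. It was above the median on that 1 array alone, with 2.87 and 3.30 in OVCAR-3 and 4.02 and 3.15 in SKOV-3. PCDH1 read 4.18 and 4.82 in ES-2, 5.47 and 4.89 in OVCAR-3 and 3.98 and 4.83 in SKOV-3, so the sign in OVCAR-3 opposed the others. PCDH17 had a second probe set that differed by 0.29, −0.12 and −0.78, against 0.26, −0.03 and −0.06 for the set with the highest mean. PCDH8 and PCDH12 were higher in each line by at most 0.18. CDH23, the partner of PCDH15 in tip links, differed by 0.38, 0.02 and 0.05. CDH26 differed by −0.06, 0.18 and −0.32.

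Factors known to act on clustered protocadherin promoters were named for 11 of 15 listed genes. None of the 11 was called for the transfection or reached 2-fold in any line, and their median differences were −0.04 (ES-2), −0.10 (OVCAR-3) and 0.06 (SKOV-3). CTCF, which binds the promoters and enhancers of the clusters, read 9.18 and 9.15 in ES-2, 9.08 and 8.69 in OVCAR-3 and 9.57 and 9.66 in SKOV-3. SMC1A, a cohesin subunit, had the largest mean difference of this list, 0.27 ± 0.31 (SD, n = 3).

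Genes in and beside the clustered locus were named for 10 of 15 listed, with median differences of −0.15, 0.04 and 0.02 and 0 called. The vault RNA gene VTRNA1-1 read 4.42 and 3.14, the latter dim, in ES-2, a difference of −1.29. VTRNA1-2 read 3.07 and 4.12, both dim, in SKOV-3, a difference of 1.04. SLC25A2, a mitochondrial carrier gene, read 4.47 to 4.97 on all 6 arrays. Proteases that cut cadherins, such as ADAM10, were named for 5 of 7 listed genes, with medians of 0.22, −0.07 and −0.21 and 0 called. The part of these factors in the signals of the beta genes was not tested.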

How the data were processed

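The deposited table holds 1 log2 signal per array for each of 53617 probe sets. The submitters' processing notes list RMA, Expression Console 1.4 (Affymetrix) and Transcriptome Analysis Console 3.0, without role or order. RMA equalises probe distributions before summarising them, which would remove much of a shift of most genes; medians of the summarised arrays still ran from 4.16 to 4.23. Total RNA was labelled with a whole-transcript kit, per the labels' protocols.

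Names came from the annotation of the platform and RefSeq (GRCh38.p14): 16098 probe sets had 1 symbol and 37519 were unnamed here. All named sets entered limma 3.58.1 (R 4.3.3, functions lmFit and eBayes) with no signal filter. The p-values are two-sided and adjusted by Benjamini-Hochberg. They rest on 2 residual degrees of freedom plus the prior ones that eBayes adds when it moderates the variances. The model held cell line and transfection. The arrays of a line are paired by coming from 1 cell line, and within a line, deviations from the group mean had correlations of 0.859, 0.857 and 0.719. No arrays held identical columns. A gene was represented by its set with the highest mean. Calls needed an adjusted p under 0.05, and between lines also 2-fold.

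Members, lists and tests were chosen with earlier results of these data known. Genes named by rule were PCDHB15, FAT4 and DSG2, the 5 highest and 5 lowest differences of each line above the median on at least 1 array of it, members of equal sign whose smallest difference was at least 0.25, the 5 largest called line differences in each direction, the highest mean of each subfamily, and up to 3 genes per list. Other genes were named after their values were seen. Alternatives were other normalizations, filters, fits, and each line or array left out. On simulated data of 16098 probe sets, 51 of 100 changes of 1 and 99 of 100 of 2 (log2) were called for the transfection, with 5 of 15898 unchanged sets. Changes that vary between lines, and data with fewer changed sets, were not tested. The values of the Y-linked PCDH11Y are not given. The number of arrays limits the precision.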

Additional observations from a re-analysis of the deposited data

How the results depend on the processing

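No member was called for the transfection under any setting run, including no replicate block (0 called), and the block changed no call. A mean signal of at least 5 kept 18 of 43 members. Of these, 13 had 1 sign in all 3 lines, in place of 22, and the share over named genes passing the filter is not given here. Members past 2-fold were 3 in place of 5 within ES-2 and 4 in place of 7 within SKOV-3, since fewer genes were counted. The median of the beta genes within SKOV-3 was 0.68 over the 10 genes kept, in place of 0.44 over all 16. That filter uses the mean over all 6 arrays, so a gene high in SKOV-3 alone can pass it. Without variance moderation, limma called 0 members in each pair of lines, in place of 7, 20 and 20 (ES-2 with OVCAR-3, ES-2 with SKOV-3, OVCAR-3 with SKOV-3). The cause was not tested, and 2 residual degrees of freedom remain there. Leaving out 1 array gave 7 to 10, 20 to 22 and 19 to 22 calls. Over these and 4 other settings (all probe sets, equal medians, quantile, intensity trend), 5 of 7, 19 of 20 and 18 of 20 calls were kept in each one. Leaving out 1 line gave 28 to 30 members of equal sign in the 2 lines left. Equal sign in 2 lines is easier to meet than in 3, and its share over all named genes was not computed. Mean differences were then 0.64 to 0.75 for PCDHB15, 0.52 to 1.04 for FAT4 and −1.49 to −0.29 for DSG2. The 3 DCHS1 probe sets averaged −0.14 in OVCAR-3. Signs turned for 3 of the within-line differences with equal array medians and for 4 with quantile normalization, all of 0.024 or less in size, among them PCDHB7 in ES-2 (0.02 to −0.01), and for DCHS1 in SKOV-3 when probe sets were averaged (−0.11 to 0.07). No tested mean difference reversed. Dim signals cannot be told from background.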
